A study of Mus musculus with 24 samples.

Results

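Primary hepatocytes that had been cultured overnight from mice lacking NEMO in hepatocytes were set against whole livers of mice of the same genotype. The members were chosen by title alone: 3 arrays of NEMO knockout hepatocytes and 3 of NEMO knockout liver, 6 of the 24 arrays in the study. The other arrays held hepatocytes and livers of KEAP1 knockout, NEMO/KEAP1 double knockout and control mice, 3 of each, and the KEAP1 knockout and control arrays (6 each) served for comparison, while the double knockout arrays entered only the shared estimate of spread. All mice were 8-week-old males per the labels. NEMOΔhepa mice carried floxed NEMO with an Alfp-Cre transgene, KEAP1Δhepa mice carried floxed KEAP1 with the same Cre, and controls were NEMOf/f mice without the deletion. Alfp-Cre combines albumin and alpha-fetoprotein control elements, so the deletion is aimed at the liver parenchyma. Which other liver cells keep NEMO was not measured here. Hepatocytes were freed by collagenase perfusion, plated in high-glucose DMEM with fetal calf serum, left to attach overnight and given new medium. No label says whether the 3 arrays of a group came from 3 mice or 3 isolations. The p-values therefore measure only the spread between arrays within groups, pooled over all 24 arrays, which may be technical.

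Ikbkg encodes NEMO, the scaffold that lets the IKK kinases be switched on. Active IKK frees NF-kB to enter the nucleus, where it turns on inflammatory and survival genes. Mice without NEMO in hepatocytes are known to develop hepatocyte death, regeneration, inflammation and fibrosis, so their liver holds more activated stellate cells and immune cells than a healthy one. Isolation by collagenase is known to be a strong stimulus for immediate early genes, which are transcribed from standing factors without new protein synthesis, and culture on a dish is known to be followed by loss of hepatocyte functions over days.

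Of the 24 arrays, 4 stood apart, and none of them was a NEMO array. Control liver 3 had the NRF2 target Nqo1 at 9.17 (log2), against 4.71 and 5.37 on the other control livers. Double knockout liver 3 had the fat cell gene Adipoq at 7.17, against at most 2.76 on the other 23 arrays. Control hepatocytes 1 and double knockout hepatocytes 3 had Xist at 9.65 and 9.76, against 2.00 to 2.98 on the other 22 arrays, although the labels give males. Many results that rest on these arrays are given with and without them. Others are given only with them, among them the shared calls, the correlations, the small RNA counts in control mice and Gdf10. On the 6 NEMO arrays Xist lay between 2.06 and 2.91, which serves as a guide to background, and 9196 of 18820 genes (48.9%) were below 5 on all 6 of them. Ikbkg was 6.26, 6.27 and 6.60 in NEMO knockout hepatocytes and 6.26, 6.25 and 6.14 in NEMO knockout liver, a difference of 0.16 ± 0.12 (log2 change ± standard error of the fit, n = 3 arrays per group throughout, limma adjusted p = 0.489). Both groups carry the deletion, and no source used here places the probe set inside or outside the deleted exons, so its level checks nothing.

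The labelled cell type was read from its markers. Albumin (Alb) was 13.23, 13.37 and 13.24 in NEMO knockout hepatocytes and 13.26, 13.35 and 13.30 in NEMO knockout liver. The master regulator Hnf4a was 10.40, 10.56 and 10.73 in the hepatocytes and 10.43, 10.73 and 10.53 in the liver. Transthyretin (Ttr) and apolipoprotein A1 (Apoa1) likewise had changes of 0.00 ± 0.06 and 0.00 ± 0.08. These 4 markers overlapped between the groups and did not separate cultured cells from whole liver. Markers of other cells were well above background in the cultured cells too: the endothelial scavenger receptor Stab2 was 7.75 to 8.16, the Kupffer cell lectin Clec4f 8.66 to 9.10 and the stellate cell enzyme Lrat 7.54 to 8.07. The cultures labelled primary hepatocytes therefore held transcripts of endothelial, Kupffer and stellate cells. In bulk samples fewer cells of a type and less RNA per cell cannot be told apart, which holds for each such marker below.

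Of the 18820 genes tested, 205 rose (1.09%) and 505 fell (2.68%) in NEMO knockout hepatocytes against NEMO knockout liver at an adjusted p under 0.05, which is 3.77% in either direction. With a log2 change of at least 1 as well, 51 rose (0.271%) and 217 fell (1.15%). The log2 changes of the called genes spanned 0.34 to 3.82 upward and 0.28 to 4.06 downward. Of the genes that rose, 116 were below 5 on all 6 arrays and 22 were olfactory, vomeronasal or taste receptors, against 81 and 0 of those that fell. The counts depended on the scaling: with each array centred on the median of all genes, which moves the median change of all genes to 0.23 where it was 0.02, 2222 genes rose and 401 fell. Leaving out 1 array left 208 to 559 genes called. The count moved by over 1.5 times without any of the 3 hepatocyte arrays (438, 393 and 362), without liver 1 (228) and without liver 3 (208). Without the 4 arrays that stood apart, whose spread enters the shared fit, 386 rose and 1094 fell.

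Immediate early genes rose in culture, and Fos had the highest change of all called genes. Fos, the AP-1 subunit, was 8.74, 8.42 and 8.18 in NEMO knockout hepatocytes and 4.37, 4.89 and 4.61 in NEMO knockout liver. The groups were far apart, with a change of 3.82 ± 0.44, or 14.1-fold (adjusted p = 5.54e-05). Ier2, an early response regulator, was 8.27, 8.23 and 8.05 in the hepatocytes and 4.67, 5.34 and 4.98 in the liver, 9.11-fold higher with little spread in culture (3.19 ± 0.22, adjusted p = 6.3e-08). Fosb, which was near background in liver at 3.55, 3.51 and 3.45, reached 7.54, 6.56 and 6.18 in the hepatocytes (3.26 ± 0.47, adjusted p = 0.000552). Atf3, a stress-induced repressor, was 10.08, 9.15 and 9.61 in the hepatocytes and 6.59, 6.27 and 7.15 in the liver (2.94 ± 0.57, adjusted p = 0.00671). Jun was among the most abundant members in culture, at 10.68, 10.28 and 10.46, against 7.72, 8.15 and 8.08 in the liver (2.49 ± 0.27, adjusted p = 2.76e-05).

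Of 24 measured AP-1 and immediate early genes 15 rose and 0 fell, with a median change of 1.74, while the median of all genes was 0.02 and 1.09% of all genes rose. Besides those above they were Btg2, an antiproliferative gene (2.78 ± 0.28), the zinc finger factor Egr1 (2.61 ± 0.33), Junb (2.19 ± 0.27), the orphan receptor Nr4a1 (2.15 ± 0.34), the mRNA-destabilising Zfp36 (2.08 ± 0.20), the MAP kinase phosphatases Dusp1 (1.85 ± 0.28) and Dusp6 (1.78 ± 0.27), Myc (1.69 ± 0.40), Maff (0.94 ± 0.26) and Jund (0.85 ± 0.16). The arrays of the groups did not overlap for any of these 15, where 12.5% of all genes had all hepatocyte arrays above all liver arrays and 15.1% had them below. The 9 others were not called, and their changes ran from -0.77 (Egr2) to 0.49 (Klf6). The count was 13 to 15 without any 1 array, and without the 4 arrays that stood apart 15 rose and 1 fell (Egr2). Myc lost its call without hepatocytes 2 or 3 or liver 1 or 3 (adjusted p = 0.0724, 0.0737, 0.096 and 0.0694).

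**Figure D1:**
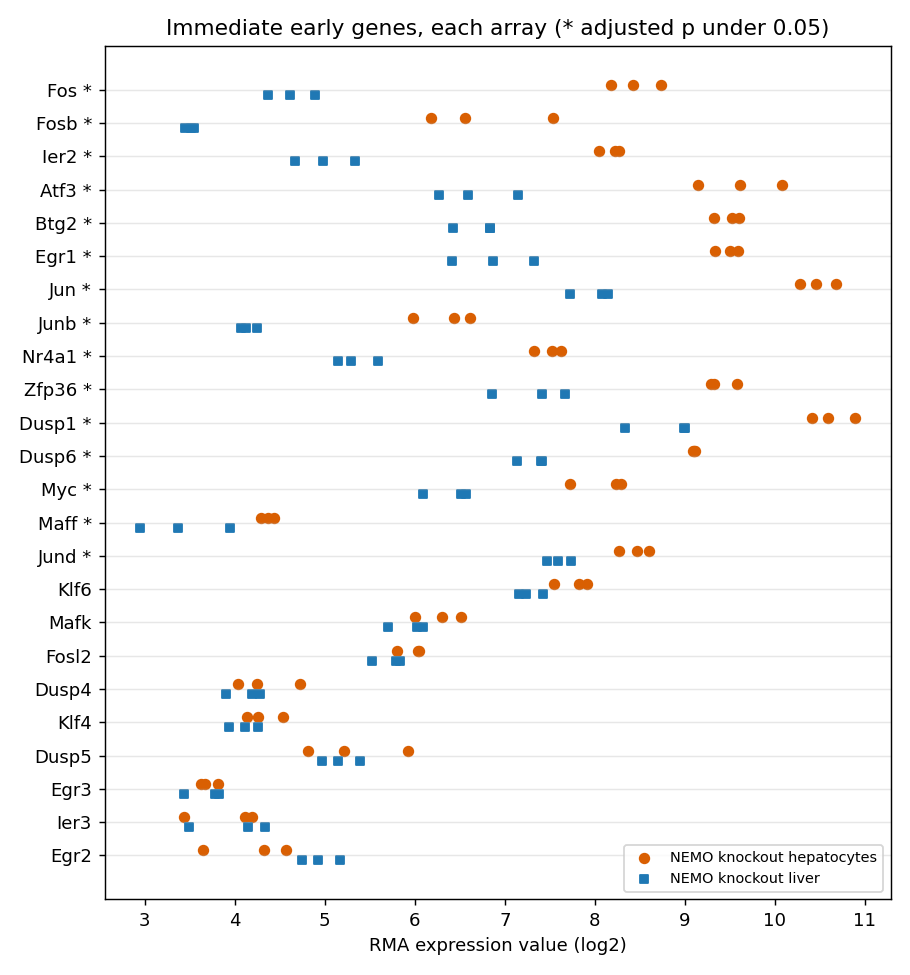
Each point is 1 array: RMA value (log2, horizontal axis) of the 24 immediate early genes in NEMO knockout hepatocytes (orange circles) and NEMO knockout liver (blue squares), ordered by change, with an asterisk at an adjusted p under 0.05. For the 15 called genes all 3 hepatocyte arrays lie above all 3 liver arrays, and Fos is separated by 3.82.

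Other genes of the early response lay outside that list. Gadd45a, a growth arrest and DNA damage gene, was 7.09, 6.86 and 7.13 in the hepatocytes and 4.89, 4.20 and 4.56 in the liver (2.47 ± 0.42, adjusted p = 0.00259). Its relative Gadd45g was 8.87, 9.35 and 9.05 against a liver range of 5.76 to 7.78 (2.34 ± 0.54, adjusted p = 0.0191), a call lost without hepatocytes 2, hepatocytes 3 or liver 3 (adjusted p = 0.0665, 0.0564 and 0.119). Ccn1, a secreted matricellular protein and YAP target, was 9.27, 9.01 and 9.26 in the hepatocytes and 7.23, 6.61 and 6.71 in the liver (2.33 ± 0.42, adjusted p = 0.00467). Bhlhe40, a repressor linked to the clock and to hypoxia, rose by 1.53 ± 0.22 (adjusted p = 0.000484). Ccn2, a relative of Ccn1 and also a YAP and TGFbeta target, moved in the opposite direction and was 5.42, 4.93 and 5.05 in the hepatocytes and 6.97, 7.24 and 7.38 in the liver (-2.07 ± 0.49, adjusted p = 0.0214), a call lost in 5 of the 6 fits without 1 array (adjusted p = 0.0513 to 0.0899).

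The promoters of the called immediate early genes were searched because these genes rose together. RefSeq windows (build GRCm38.p6) were held for 12 of the 15, all but Ier2, Egr1 and Myc. The 250 bases before each annotated start were searched on both strands. The CArG box, bound by SRF, was found for 1 gene of 12 (Zfp36), and 1.47% of 32851 mouse windows hold one. The cAMP response element, TGACGTCA, was found for 3 of 12 (Btg2, Dusp1 and 1 of 3 windows of Maff), and 1.55% of all windows hold it. TATAAA was found for 1 of 12 (Fos), against 12.4% of all windows. No window held more than 1 of the 3 motifs. Only full matches in these 250 bases counted, so variant sites and sites further upstream were missed. A gene without a match is therefore not shown to lack such a site. A match is a description of the sequence, not evidence of binding. The stretches below hold the matches, with the motif in capitals, each 120 bases long and read 5′ to 3′ on the gene's strand. Zfp36 and Dusp1 were chosen for them after their values were seen.
Fos, chr12:85473770-85473889, plus strand, TATAAA 33 to 28 bases before the start: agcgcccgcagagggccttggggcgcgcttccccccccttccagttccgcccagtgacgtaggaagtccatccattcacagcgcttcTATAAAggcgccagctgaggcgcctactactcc
Btg2, chr1:134079256-134079375, minus strand, cAMP response element 166 to 159 bases before the start: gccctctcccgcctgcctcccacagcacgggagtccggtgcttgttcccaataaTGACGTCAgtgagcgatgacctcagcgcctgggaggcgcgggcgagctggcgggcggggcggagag
Zfp36, chr7:28379229-28379348, minus strand, CArG box 58 to 49 bases before the start: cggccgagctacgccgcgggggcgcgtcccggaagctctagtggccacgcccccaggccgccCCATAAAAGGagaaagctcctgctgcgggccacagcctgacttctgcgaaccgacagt
Dusp1, chr17:26508553-26508672, minus strand, cAMP response element 143 to 136 bases before the start: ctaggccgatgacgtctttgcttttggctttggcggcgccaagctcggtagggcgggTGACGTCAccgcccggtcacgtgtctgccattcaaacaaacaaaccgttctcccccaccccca
Among the genes with these windows Fos rose by 3.82, Btg2 by 2.78, Zfp36 by 2.08 and Dusp1 by 1.85.

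Small nuclear and nucleolar RNAs made up another group of the risen genes. This family was picked out after its values were seen, so its counts are a description. Snora75, a guide RNA for pseudouridylation, was 7.71, 7.48 and 6.81 in NEMO knockout hepatocytes and 4.41, 3.69 and 3.57 in NEMO knockout liver. It had the second highest change of the called genes, 3.44 ± 0.35 (10.9-fold, adjusted p = 1.54e-05). Of 64 measured genes of this family 16 rose and 0 fell, with 57 above 0 and a median of 0.47, where 1.09% of all genes rose. The count was 26 without the arrays that stood apart and 35 with centred arrays. The guide RNAs of the H/ACA class rose in 10 of 26 and those of the C/D class in 5 of 30. Snora3 rose by 2.18 ± 0.39, Snord118 by 1.86 ± 0.34, Snora62 by 1.81 ± 0.38 and Rnu3a, a U3 RNA of ribosome assembly, by 1.80 ± 0.37. In KEAP1 knockout mice 4 of the 64 rose (median 0.30), where 0.473% of all genes did, and in control mice 6 rose (median 0.30), where 1.29% of all genes did. Many of these RNAs lie in introns of host genes and have near-identical copies, so single members are uncertain.

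Hepatocyte function showed few called changes with all 24 arrays in the fit, where 1.09% of all genes rose and 2.68% fell, and more in other fits. Of 32 secreted plasma proteins 0 were called, with changes from -0.25 to 0.30 and a median of 0.04. Of 37 cytochrome P450 genes 1 fell, Cyp1a2, which oxidises caffeine, at 11.52, 11.64 and 11.54 in the hepatocytes against 12.04, 12.17 and 11.79 in the liver (-0.43 ± 0.11, adjusted p = 0.0355). Of 24 bile acid genes, 23 fatty acid oxidation genes, 20 cholesterol synthesis genes, 34 NRF2 targets and 26 proteasome subunits 0 were called in each, with list medians between -0.14 and 0.14. Without the arrays that stood apart 5 P450 genes rose and 3 fell, 4 bile acid genes rose and 1 fell, 2 plasma proteins rose, 1 cholesterol synthesis gene rose and 2 NRF2 targets fell. In the fit of the 6 NEMO arrays 1 P450 gene rose and 4 fell, and 3 bile acid genes rose and 1 fell. Counted without the adjustment, 20.3% of all genes had a p under 0.05, so an uncalled list is not shown to be unchanged. Centring the arrays put the median of cholesterol synthesis at 0.08 instead of -0.14, of NRF2 targets at 0.19 instead of -0.02 and of proteasome subunits at 0.20 instead of -0.02, so no direction is given for them.

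Of 19 hepatocyte transcription factors 2 rose, where 1.09% of all genes did. Nr0b2, the bile-acid-induced repressor SHP, was 7.78, 7.42 and 7.68 in NEMO knockout hepatocytes and 6.81, 6.69 and 5.91 in NEMO knockout liver (1.15 ± 0.27, adjusted p = 0.0217), without overlap. Cebpb, a factor of the acute phase and regeneration, was 7.77, 7.74 and 7.97 in the hepatocytes and 7.52, 7.20 and 7.18 in the liver (0.53 ± 0.13, adjusted p = 0.0272). Among periportal and amino acid genes Pck1, the rate-limiting enzyme of gluconeogenesis, was 11.96, 11.94 and 12.15 in the hepatocytes and 11.56, 11.40 and 9.43 in the liver (1.22 ± 0.33, adjusted p = 0.0428). Its size rested on liver 3, without which the change was 0.54 and not called (adjusted p = 0.106). The urea cycle arginase Arg1 rose by 0.50 ± 0.13 (adjusted p = 0.0307) and the transaminase Got1 by 0.84 ± 0.19 (adjusted p = 0.0156), 2 of 30 urea cycle and amino acid genes. The Wnt feedback inhibitor Nkd1, a pericentral gene, fell by 0.57 ± 0.14 (adjusted p = 0.0238). Nr0b2, Cebpb, Cyp1a2, Pck1, Arg1, Got1 and Nkd1 each lost the call without at least 3 of the 6 arrays in turn, and Arg1 and Nkd1 without each.

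Glycolytic and hypoxia genes gave 1 rise and 2 falls of 22, where 1.09% of all genes rose and 2.68% fell. Vegfa, the endothelial growth factor that hepatocytes secrete, was 9.03, 8.65 and 8.97 in the hepatocytes and 8.16, 8.46 and 8.36 in the liver (0.56 ± 0.12, adjusted p = 0.0127). Pkm, the pyruvate kinase of tissues other than mature liver, was 6.43, 5.83 and 6.17 against 7.20, 7.06 and 7.12 in the liver (-0.98 ± 0.24, adjusted p = 0.0271). Adm, a vasodilator peptide, fell by 0.76 ± 0.20 (adjusted p = 0.0365). Of the fatty acid synthesis genes 1 of 21 fell, Scd2, a desaturase found mostly outside hepatocytes, at 6.04, 5.55 and 5.39 in the hepatocytes against 7.77, 7.21 and 8.13 in the liver (-2.04 ± 0.48, adjusted p = 0.0214). Each of these 4 calls was lost in at least 3 of the 6 fits without 1 array. Cell cycle genes had 0 of 31 called, with Mki67 at 7.51, 8.19 and 7.77 in the hepatocytes and 6.80, 6.99 and 8.36 in the liver, overlapping.

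**Figure D2:**
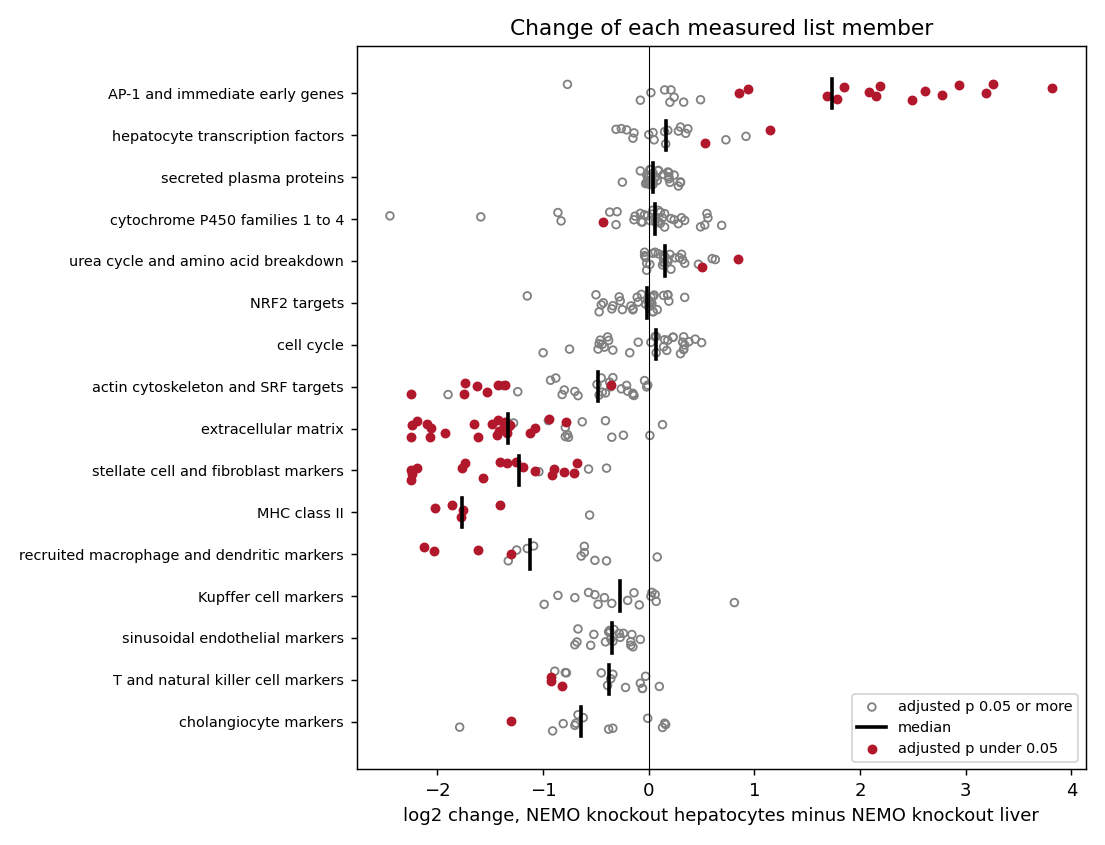
Each point is 1 measured gene of a list, placed by its log2 change (NEMO knockout hepatocytes minus NEMO knockout liver), filled red at an adjusted p under 0.05, with a black bar at the list median. Immediate early genes reach a median of 1.74, plasma proteins cluster at 0.04, and extracellular matrix, stellate cell and MHC class II genes lie mostly below 0.

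Matrix genes and markers of the cells that make them fell widely. Dpt, a dermatopontin of connective tissue, was 3.18, 2.99 and 2.98 in NEMO knockout hepatocytes and 7.31, 6.63 and 7.39 in NEMO knockout liver. Its change of -4.06 ± 0.44 was the lowest of the called genes (16.7-fold lower, adjusted p = 2.76e-05), near background in culture against a clear level in liver. Col1a1, the main fibrillar collagen of scar, was 6.11, 5.95 and 6.19 in the hepatocytes and 8.33, 7.89 and 8.81 in the liver (-2.25 ± 0.45, adjusted p = 0.00773). Col3a1, its partner in early fibrosis, was 6.09, 5.88 and 6.01 in the hepatocytes and 8.26, 7.70 and 8.74 in the liver (-2.24 ± 0.41, adjusted p = 0.00488). The next lowest changes were those of Prelid2 (-2.67 ± 0.46) and Akr1c18 (-2.56 ± 0.36), which are not matrix genes and are described with the other genotypes. Other called genes among the lowest were Gsn, an actin-severing protein (-2.47 ± 0.40), the growth factor Gdf10 (-2.37 ± 0.28), the proteoglycan Ogn (-2.34 ± 0.30), Capn6, a calpain-like protein (-2.25 ± 0.36), the cell surface glycoprotein Cd24a (-2.53 ± 0.68) and Fam25c (-2.32 ± 0.60). The calls of Dpt, Col3a1, Gsn, Gdf10, Ogn and Capn6 held without any 1 array. Col1a1 lost its call without liver 3 (adjusted p = 0.0547), Cd24a in 5 of the 6 such fits and Fam25c in all 6.

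Of 35 extracellular matrix genes 22 fell and 0 rose, with a median of -1.33, where 2.68% of all genes fell. The network collagen Col6a3 fell by 2.10 ± 0.37, the tissue inhibitor Timp2 by 2.07 ± 0.39, the proteoglycan Lum by 2.06 ± 0.45 and the gelatinase Mmp2 by 1.93 ± 0.47. Fn1, which hepatocytes themselves secrete as plasma fibronectin, stayed near its liver level with 11.61, 11.71 and 11.85 in the hepatocytes and 11.80, 11.74 and 11.59 in the liver (0.01 ± 0.12, adjusted p = 0.969). Col18a1, also made by hepatocytes, was 0.13 ± 0.15 (adjusted p = 0.673). These were the only 2 of the 35 with a change above 0 in the uncentred values.

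Of 20 stellate cell and fibroblast markers 17 fell and 0 rose, where 2.68% of all genes fell. The median was -1.22, and the collagens above belong to both lists. The platelet-derived growth factor receptor Pdgfrb was 6.43, 5.80 and 5.87 in NEMO knockout hepatocytes and 7.55, 7.40 and 7.84 in NEMO knockout liver (-1.57 ± 0.31, adjusted p = 0.00773). Smooth muscle actin Acta2, the mark of activated stellate cells, was 5.77, 4.98 and 5.45 in the hepatocytes and 7.70, 7.16 and 8.08 in the liver (-2.25 ± 0.50, adjusted p = 0.0144). Its call was lost without hepatocytes 2, liver 1 or liver 3 (adjusted p = 0.0613, 0.0565 and 0.0805). The retinyl ester enzyme Lrat was 8.07, 7.83 and 7.54 against 8.11, 9.19 and 9.25 in the liver and was not called (-1.04 ± 0.31, adjusted p = 0.0629). The summed level of the 20 markers (log2 of the sum of unlogged values) was 11.13 to 11.42 in the hepatocytes and 12.39 to 12.72 in the liver, and Des, the lowest marker in the hepatocytes, reached 4.04 there. This lower stellate signal went with the lower matrix signal, and its part in it was not tested. Fewer were called without hepatocytes 2 (14 matrix genes and 10 stellate markers), hepatocytes 3 (14 and 12), liver 1 (10 and 11) and liver 3 (5 and 6), while the medians lay between -1.41 and -1.18 and between -1.32 and -1.13 over the fits without 1 array. Without the 4 arrays that stood apart the counts were 28 and 18.

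Cytoskeletal genes followed. Of 34 actin and SRF target genes 8 fell and 0 rose, where 2.68% of all genes fell and 1.09% rose. The median of the 34 was -0.48 (-0.26 with centred arrays). Every change was at or below -0.01 in the uncentred values, while 8 of the 34 were above 0 with centred arrays. Vim, the mesenchymal intermediate filament, was 7.83, 7.37 and 7.67 in the hepatocytes and 9.60, 8.90 and 9.61 in the liver (-1.75 ± 0.42, adjusted p = 0.0218). Tagln, a smooth muscle protein, fell by 1.74 ± 0.35 (adjusted p = 0.00853) and the calcium-binding S100a11 by 1.63 ± 0.45 (adjusted p = 0.0471). Actb, the general actin, was 12.47, 12.27 and 12.30 in the hepatocytes and 12.49, 12.46 and 12.53 in the liver, an overlapping pair (-0.15 ± 0.08, adjusted p = 0.328). Of 27 annexins and integrins 6 fell, Anxa2 (-1.71 ± 0.42), Anxa1 (-1.60 ± 0.43), Itga8 (-1.54 ± 0.33) and Itga4 (-1.37 ± 0.31) the most. The called actin genes numbered 0 without liver 3, 1 without liver 1 or hepatocytes 2 and 2 without hepatocytes 3. The called annexins and integrins numbered 0 without liver 1 or liver 3, 1 without hepatocytes 3, 2 without hepatocytes 2 and 3 without hepatocytes 1 or liver 2. The median of the annexins and integrins was -0.24, or -0.02 with centred arrays. TGFbeta-induced Tgfbi (-1.17 ± 0.26, adjusted p = 0.0137) and the protease Plau (-1.11 ± 0.22, adjusted p = 0.00723) also fell, and Tgfbi lost its call without hepatocytes 2, liver 1 or liver 3 (adjusted p = 0.0567, 0.0735 and 0.0518). Vim, Tagln and Acta2 are marks of stellate cells as well, whose summed level was lower in the hepatocytes as given above.

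Immune cell genes were lower for some cell types and not called for others. MHC class II genes, which present antigen on dendritic cells, macrophages and B cells, fell in 5 of 6, where 2.68% of all genes fell. Their median change was -1.77. Cd74, the invariant chain, was 8.36, 8.52 and 8.69 in NEMO knockout hepatocytes and 10.78, 9.92 and 10.20 in NEMO knockout liver (-1.78 ± 0.39, adjusted p = 0.0132). Liver 1 was the highest of the livers for Cd74, and without it the change was -1.54 and not called (adjusted p = 0.0741). H2-Eb1 (-2.02 ± 0.45), H2-Aa (-1.86 ± 0.39), H2-Ab1 (-1.76 ± 0.41) and the class II transactivator Ciita (-1.41 ± 0.25) also fell. The fits without 1 array called 1 to 5 of the 6, with 1 without liver 1 and 3 without hepatocytes 1 or liver 3.

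Where 2.68% of all genes fell, 4 of 14 markers of recruited macrophages and dendritic cells did, with a median of -1.12. They were Gpnmb, of lipid-laden macrophages (-2.13 ± 0.51), the monocyte receptor Ccr2 (-2.03 ± 0.46), Plac8 (-1.62 ± 0.37) and the dendritic integrin Itgax (-1.30 ± 0.32). Ccr2 was 4.10, 2.90 and 3.00 in the hepatocytes and 6.05, 4.73 and 5.32 in the liver, so it was near background on 2 hepatocyte arrays. The summed level of the 14 markers was 9.05 to 9.69 in the hepatocytes and 10.06 to 10.55 in the liver. Of 16 T and natural killer cell markers 3 fell, the T cell receptor chains Cd3e (-0.93 ± 0.21) and Cd3g (-0.93 ± 0.22) and the cytokine receptor Il2rb (-0.82 ± 0.17), all from liver levels of at most 5.02. Without 1 array the macrophage count was 0 (without hepatocytes 3, liver 1 or liver 3) or 2 (without hepatocytes 1 or 2), and the T cell count was 0 without liver 1. B cell markers had 0 of 11 called (median -0.51) and neutrophil markers 0 of 11 (median -0.06). Of 14 cholangiocyte markers 1 fell, the mucin Muc1 (-1.30 ± 0.24, adjusted p = 0.00488), while the duct keratin Krt19 was 3.24, 3.73 and 3.52 in the hepatocytes and 3.74, 4.22 and 4.40 in the liver. Without the 4 arrays 4 cholangiocyte markers fell, and 2 did in the fit of the 6 NEMO arrays.

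Kupffer cell and sinusoidal endothelial markers had no called member with all 24 arrays in the fit, while 3 of each list fell in the fit of the 6 NEMO arrays, and 1 and 2 fell without the 4 arrays that stood apart. Of 16 Kupffer markers 0 were called (median -0.27), and Clec4f was 9.10, 8.66 and 8.67 in the hepatocytes and 8.69, 9.07 and 8.93 in the liver (-0.09 ± 0.29, adjusted p = 0.896). Of 20 endothelial markers 0 were called, although all 20 changes lay below 0 (median -0.35) where centred arrays put 5 above it (median -0.13). The vascular growth factor receptor Kdr was 7.99, 7.90 and 7.92 in the hepatocytes and 8.05, 8.10 and 7.91 in the liver, which overlap (-0.08 ± 0.22, adjusted p = 0.863). The adhesion molecule Pecam1 was 6.43, 6.02 and 6.29 in the hepatocytes and 6.87, 6.70 and 6.82 in the liver, which do not (-0.55 ± 0.19, adjusted p = 0.114). The summed level of the endothelial markers was 12.11 to 12.47 in the hepatocytes and 12.49 to 12.69 in the liver, and that of the Kupffer markers 11.75 to 12.25 and 12.24 to 12.44.

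Genes of the deleted pathway gave few calls, where 1.09% of all genes rose and 2.68% fell. Of 22 IKK and NF-kB components 0 were called, with changes from -0.39 to 0.16, and of 19 death receptor genes 0 were called by limma. Of these 19, 17 had changes below 0 (median -0.27, or -0.05 with centred arrays), down to -0.72, and 9 were lower at an unadjusted p under 0.05. Leaving out the arrays that stood apart gave 2 falls among the 19. Of 28 NF-kB targets and chemokines 1 fell, Ccl5, a T cell chemokine, at 4.15, 4.34 and 4.25 in the hepatocytes and 6.30, 5.49 and 5.53 in the liver (-1.53 ± 0.26, adjusted p = 0.00246). Of these 28, 4 fell without the arrays that stood apart and 3 in the fit of the 6 NEMO arrays. The inhibitor Nfkbia, itself an NF-kB target, was 7.56, 7.33 and 7.21 in the hepatocytes and 7.90, 7.64 and 7.31 in the liver, overlapping (-0.25 ± 0.19, adjusted p = 0.485). Of 23 interferon response genes 2 fell, the GTPase Gbp2 (-1.38 ± 0.38, adjusted p = 0.0469) and Oasl2 (-0.89 ± 0.24, adjusted p = 0.0411), and 0 of the 23 had a change above 0 in the uncentred values (median -0.40, with 5 above 0 when arrays were centred). Both lost the call in 5 of the 6 fits without 1 array. Keap1 (0.41 ± 0.15, adjusted p = 0.12) and Nfe2l2, which encodes NRF2 (-0.35 ± 0.13, adjusted p = 0.15), were not called. Stress programmes gave few calls as well with all 24 arrays in the fit: 0 of 22 unfolded protein response genes, 0 of 14 heat shock genes, 0 of 19 metallothionein, zinc and iron genes, 0 of 21 acute phase genes and 0 of 25 keratin and junction genes were called, and 1 of 19 p53 targets (Btg2) and 1 of 24 MYC and ribosome genes (Myc) rose. Without the arrays that stood apart 2 unfolded protein response genes rose, 3 keratin and junction genes and 1 acute phase gene fell, and 1 p53 target rose and 3 fell. With centred arrays 4 unfolded protein response and 2 heat shock genes rose. The stress-induced Atf3 and the DNA damage gene Gadd45a, which rose as given above, were not in these stress lists. Of 19 oncofetal and liver tumour markers 2 fell, Akr1c18 and Scd2, and 0 of 6 erythroid markers were called.

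The same difference was then read in control and in KEAP1 knockout mice, which share no array with the NEMO groups. In control hepatocytes against control liver 243 genes rose (1.29%) and 723 fell (3.84%), and in KEAP1 knockout hepatocytes against their liver 89 rose (0.473%) and 380 fell (2.02%). Without the arrays that stood apart 138 rose and 438 fell in control mice and 226 rose and 991 fell in KEAP1 knockout mice, which turned the order of these genotypes by number of calls. Of the 205 genes that rose in the NEMO knockout 54 also rose in control mice, 26.3% of the NEMO list and 22.2% of the control list. Of the 505 that fell 249 also fell there, 49.3% and 34.4%. For KEAP1 knockout mice the shared counts were 45 (45 of the 205 of the NEMO list and 50.6% of the 89 of the KEAP1 list) and 198 (39.2% and 52.1%). No gene was called in opposite directions. Over the 18820 genes, which are not independent, the NEMO knockout changes had a Pearson r of 0.565 with the control changes and 0.707 with the KEAP1 knockout changes. The Spearman rho was 0.377 and 0.566. These shared counts and correlations include the control arrays that stood apart. Immediate early genes rose in 15 of 24 in the NEMO knockout mice (median 1.74), in 14 in KEAP1 knockout mice (median 1.31) and in 15 in control mice (median 1.52). The difference of the changes between NEMO knockout and control mice was called by limma for 0 of these 24, and its unadjusted p was under 0.05 for 2. They were Jun (-1.39 ± 0.38, limma adjusted p = 0.219) and Myc (-1.39 ± 0.57, limma adjusted p = 0.457). Without the arrays that stood apart 14 rose in control mice (median 1.78), and 16 rose and 1 fell in KEAP1 knockout mice. The difference from controls was then called for 0 of the 24 genes. Its unadjusted limma p was under 0.05 for 6 of them, and for 2322 of all 18820 genes.

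**Figure D3:**
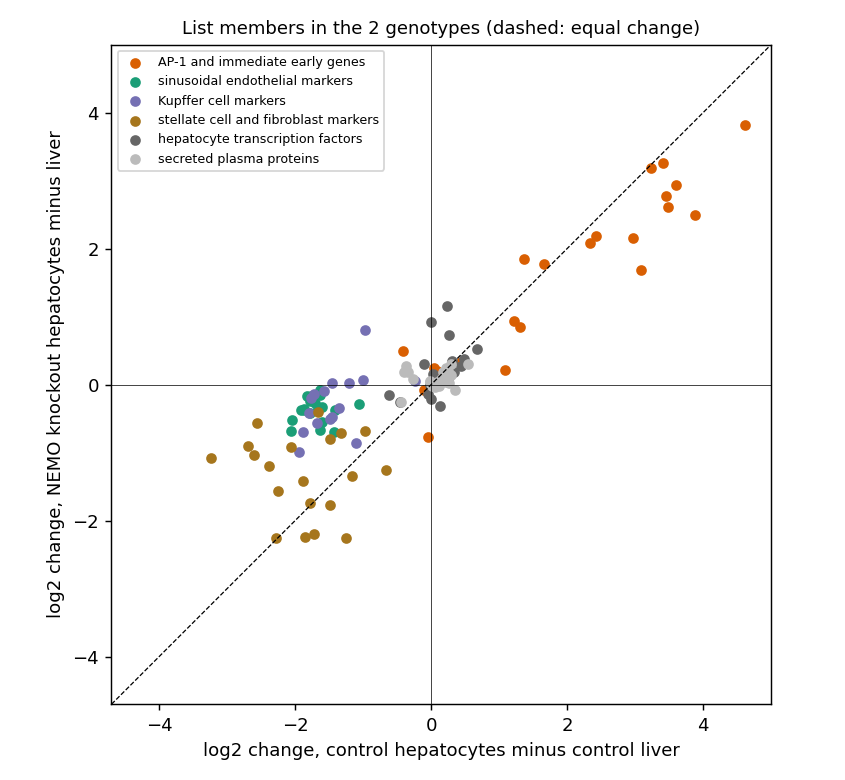
Each point is 1 gene of 6 lists: log2 change in NEMO knockout mice (hepatocytes minus liver, vertical axis) against the same change in control mice (horizontal axis), with a dashed line at equal change. Called immediate early genes lie at the upper right, most of them on or below the line, while endothelial and Kupffer markers lie above it, with medians of -0.35 and -0.27 in NEMO knockout mice against -1.73 and -1.47 in control mice.

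The test of the difference itself, the NEMO knockout change minus the control change, called 10 genes higher (0.0531%) and 3 lower (0.0159%), 0.0691% in all. At an unadjusted p under 0.05 there were 1781 genes (9.46%), 4.88% higher and 4.59% lower. This contrast is arithmetically the same as the NEMO effect in hepatocytes minus the NEMO effect in liver. The call depended strongly on single arrays: 0 genes were called without control hepatocytes 1, NEMO knockout hepatocytes 1 or 3, control liver 2 or NEMO knockout liver 3, 1 without NEMO knockout liver 1, 2 without control hepatocytes 3, 6 without NEMO knockout hepatocytes 2 and 7 without NEMO knockout liver 2. By contrast 47 were called without control hepatocytes 2, 40 without control liver 1 and 25 without control liver 3. Without all 4 arrays that stood apart 12 genes were called, 2 higher and 10 lower. Only Prelid2 was among the 13 and the 12. Against KEAP1 knockout mice the limma test gave 0 calls (0.0%), with an unadjusted p under 0.05 for 797 genes (4.23%), fewer than the 941 that make up 5%.

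Of the 10 higher genes, most are known from blood vessels or from stellate cells. Ptprb, a phosphatase of endothelium, was 8.69, 8.28 and 8.29 in NEMO knockout hepatocytes and 8.72, 8.95 and 8.71 in NEMO knockout liver, a change of -0.37 ± 0.17 (adjusted p = 0.213). In control mice its change was -1.92, and the difference was 1.55 ± 0.23 (adjusted p = 0.0303). Dcn, decorin, a proteoglycan of stellate cells, changed by -1.08 in NEMO knockout mice against -3.24 in control mice (difference 2.16 ± 0.39), and Rgs5, of pericytes, by -0.57 against -2.56 (1.99 ± 0.35, adjusted p = 0.0374 for both). In KEAP1 knockout mice Ptprb changed by -0.77, Dcn by -1.94 and Rgs5 by -2.24. Ecm1, Plvap, Calcrl, Adgrf5, Adgrl4, Pde2a and Adgrf4 had differences of 0.94 to 1.79. Plvap, Calcrl, Adgrf5 and Adgrl4 are genes of vascular endothelium, while Adgrf4 was at most 2.55 on the NEMO arrays and so near background. Without the 4 arrays that stood apart the difference was 1.48 ± 0.28 for Ptprb (adjusted p = 0.0566), 1.58 ± 0.31 for Dcn (adjusted p = 0.07) and 1.65 ± 0.35 for Rgs5 (adjusted p = 0.081), none of them called.

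Whole marker lists showed the same contrast. All 20 endothelial markers fell in control hepatocytes against control liver (median -1.73, and 18 with -1.50 without the arrays that stood apart), 4 fell in KEAP1 knockout mice (median -0.71) and 0 in NEMO knockout mice (median -0.35). Without those arrays 10 fell in KEAP1 knockout mice and 2 in NEMO knockout mice, with medians as before. The difference between NEMO knockout and control mice had a median of 1.46 over the 20, with 1 called (Ptprb) and 19 at an unadjusted p under 0.05, all higher, where 4.88% of all genes were. Without the arrays that stood apart the median difference was 1.19 and 18 had an unadjusted p under 0.05. The mean of the list was 7.72, 7.31 and 7.40 in NEMO knockout hepatocytes, against 5.86, 6.40 and 5.51 in control hepatocytes. In the livers it was 7.80, 7.92 and 7.80 in NEMO knockouts and 7.14, 7.71 and 8.03 in controls. The hepatocyte arrays of these genotypes did not overlap, while the livers overlapped through control liver 3, one of the arrays that stood apart, and without it both other control livers lay below all NEMO knockout livers.

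Kupffer markers followed with 14 of 16 lower in control mice (median -1.47), 1 in KEAP1 knockout mice (median -0.77) and 0 in NEMO knockout mice (median -0.27). Without the arrays that stood apart 5 were lower in control mice (median -0.94), 6 in KEAP1 knockout mice and 1 in NEMO knockout mice, so the order of the counts rests on those arrays. The difference between NEMO knockout and control mice had 0 called and 13 at an unadjusted p under 0.05, with a median of 1.14, and 7 with a median of 0.67 without those arrays. Of 20 stellate markers 17 fell in NEMO knockout, 15 in KEAP1 knockout and 18 in control mice, with medians of -1.22, -1.51 and -1.81. The difference between NEMO knockout and control mice called 3 of them higher (Dcn, Ecm1 and Rgs5), with 9 of 20 higher at an unadjusted p under 0.05 and a median of 0.54. With the arrays that stood apart left out, 0 were called higher and 1 lower (Col1a1), and the median difference was 0.19. How many cells of each type were in the cultures was not measured, so the part of such cells in the differences named above was not tested.

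**Figure D4:**
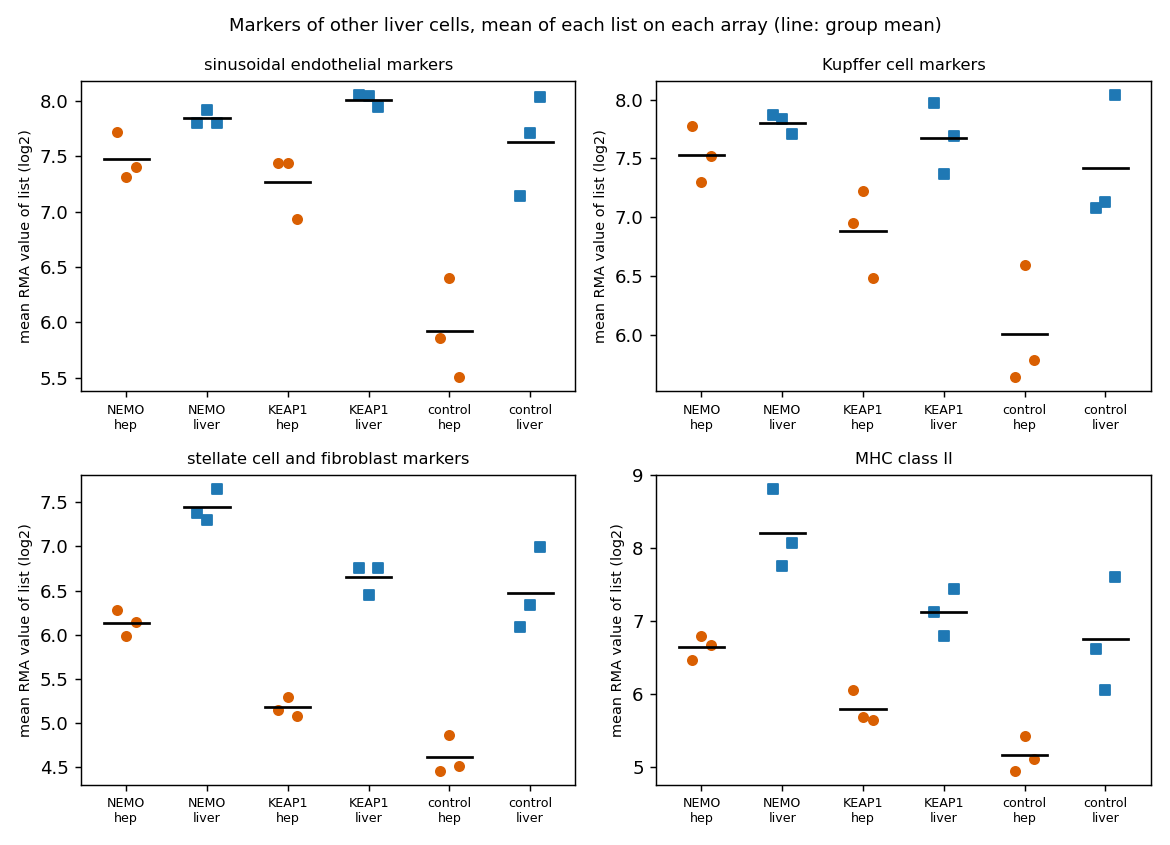
Mean RMA value (log2) of 4 marker lists on each array, hepatocytes as orange circles and liver as blue squares, for NEMO knockout, KEAP1 knockout and control mice, with a line at each group mean. The endothelial mean is 7.31 to 7.72 in NEMO knockout hepatocytes and 5.51 to 6.40 in control hepatocytes, while stellate and MHC class II means lie lower in hepatocytes than in liver in all 3 genotypes.

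Of the 3 genes with a lower difference, Akr1c18 and Prelid2 had their highest group means in NEMO knockout liver. Akr1c18, a reductase that inactivates progesterone, was 4.50, 6.40 and 5.20 in NEMO knockout hepatocytes and 7.97, 7.32 and 8.48 in NEMO knockout liver (-2.56 ± 0.36, adjusted p = 0.000468). In KEAP1 knockout mice it changed by 0.24 and in control mice by 0.25, with all group means between 2.95 and 3.78, and the difference from controls was -2.81 ± 0.51 (adjusted p = 0.0374). The hepatocyte arrays spanned a wider range than the livers and stayed below all of them. Prelid2, a protein of the family that moves phospholipids within mitochondria, was 3.69, 4.19 and 4.34 in NEMO knockout hepatocytes and 6.56, 6.75 and 6.94 in NEMO knockout liver (-2.67 ± 0.46, adjusted p = 0.00308). Its change was -0.56 in KEAP1 knockout mice and 0.88 in control mice, and the difference from controls was -3.55 ± 0.65 (adjusted p = 0.0374), or -4.01 ± 0.60 without the arrays that stood apart (adjusted p = 0.016). The zinc finger gene Zfp791 was 3.75, 4.04 and 3.87 in the hepatocytes and 4.75, 4.55 and 4.48 in the liver (difference from controls -1.07 ± 0.20, adjusted p = 0.0437), low in both. Akr1c18 and Prelid2 kept their fall in NEMO knockout mice in all 6 fits that left out 1 array. Gdf10 had the same form without passing the test of the difference: it fell by 2.37 in NEMO knockout mice and changed by -0.80 in control mice (difference -1.57 ± 0.40, adjusted p = 0.175).

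**Figure D5:**
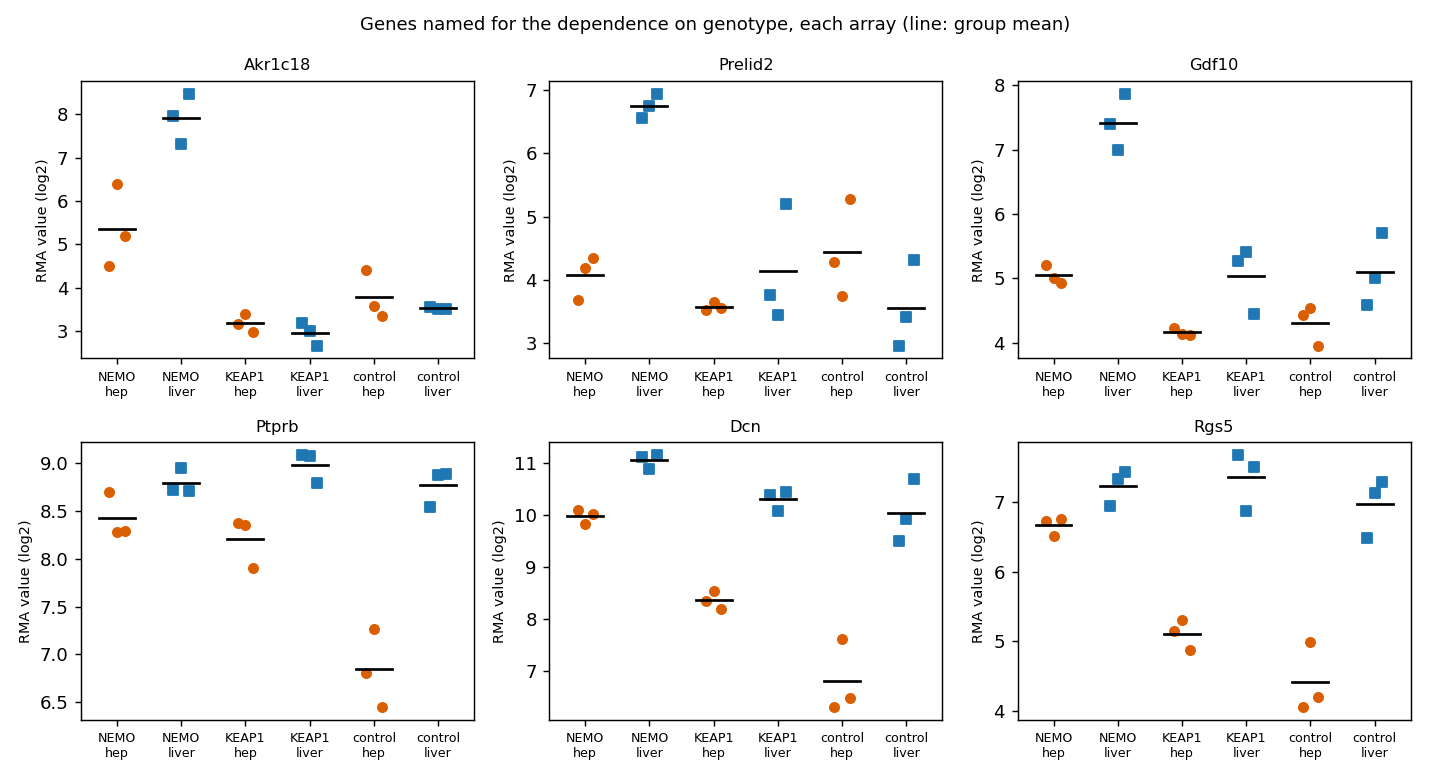
RMA values (log2) of 6 genes on each array of NEMO knockout, KEAP1 knockout and control mice, hepatocytes (orange circles) left of their liver (blue squares), with a line at each group mean. Akr1c18, Prelid2 and Gdf10 are highest in NEMO knockout liver, and Ptprb, Dcn and Rgs5 have their lowest group mean in control hepatocytes. Rgs5 is low in KEAP1 knockout hepatocytes too, with a mean of 5.11 against 4.41 in control and 6.67 in NEMO knockout hepatocytes.

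Cholesterol synthesis, clock and growth hormone genes had no called member in the test of the difference from control mice, apart from Ciart when the arrays that stood apart were left out. Of 20 cholesterol synthesis genes 0 rose in NEMO knockout hepatocytes against their liver (median -0.14) and 6 rose in control hepatocytes (median 0.46). Without the arrays that stood apart 1 rose in NEMO knockout mice and 7 in control mice (median 0.56). The difference had a median of -0.57, with 12 of 20 lower at an unadjusted p under 0.05. Idi1, an enzyme of isoprenoid supply, was 9.66, 9.72 and 9.38 in NEMO knockout hepatocytes and 9.65, 9.89 and 9.71 in NEMO knockout liver, which overlap, and its difference from the control change was -0.75 ± 0.19 (limma adjusted p = 0.168). The median difference was -0.59 without the arrays that stood apart. In KEAP1 knockout mice, as in NEMO knockout mice, 0 of the 20 rose (median -0.1). The NEMO knockout change minus the KEAP1 knockout change had a median of -0.06 over this list. Of 14 clock genes 0 were called in NEMO knockout mice (median 0.19), while 7 rose and 2 fell in control mice (median 0.99, or 4 and 1 without the arrays that stood apart). In KEAP1 knockout mice 1 rose and 0 fell (median 0.52). The clock repressor Ciart was 4.18, 3.58 and 3.84 in NEMO knockout hepatocytes and 3.97, 3.77 and 3.30 in NEMO knockout liver, against a change of 2.28 in control mice (difference -2.09 ± 0.50, limma adjusted p = 0.136). Without the arrays that stood apart the difference was -2.85 ± 0.44 and was called (limma adjusted p = 0.016).

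Growth hormone and male-biased genes had changes above 0 for all 21 members in NEMO knockout mice, with a median of 0.37 (0.59 with centred arrays). None was called by limma with all 24 arrays in the fit (3 at an unadjusted p under 0.05), 4 rose without the arrays that stood apart, 4 with centred arrays and 7 in the fit of the 6 NEMO arrays. Cyp7b1, an oxysterol hydroxylase, was 10.73, 10.41 and 10.54 in NEMO knockout hepatocytes and 9.44, 7.84 and 8.45 in NEMO knockout liver, without overlap (1.98 ± 0.61, limma adjusted p = 0.0696). In control mice the list median was -0.34, or -0.01 without the arrays that stood apart, and the median difference was 0.62, or 0.36 without them. KEAP1 knockout mice were like NEMO knockout mice, with 20 of the 21 changes above 0 and a median of 0.38. There 1 gene rose, where 0.473% of all genes did, and 5 rose without the arrays that stood apart. The NEMO knockout change minus the KEAP1 knockout change had a median of -0.11.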

How the data were processed

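RNA was labelled and hybridised to 1-colour Affymetrix mouse arrays. The authors deposited log2 expression values, for which the submitters' processing notes name RMA without a version. Values of 0.509 to 13.6, with array medians of 4.03 to 4.23 on the 24 arrays, fit a log2 scale. Arrays have no read depth, and 3 per group limit the precision.

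Of 35556 probe sets 21218 had 1 gene symbol in the platform annotation, 1881 several and 12457 none listed. Only the first were used, with the probe set of highest mean per gene (1386 genes had several), giving 18820 genes without a filter on low values. RefSeq tables (GRCm38.p6) changed 0 symbols and left 33 probe sets unmatched.

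Differences were fitted with limma 3.58.1 in R 4.3.3 (lmFit, eBayes with trend, all 24 arrays in 8 groups), two-sided, with Benjamini-Hochberg adjustment over all genes, and checked on simulated data. The 44 lists held 948 symbols, 863 of them measured. Members and lists were chosen with earlier results of these data known. Named genes were the 12 highest and 12 lowest called changes without overlap, up to 4 called members per list and direction, up to 8 per direction in the 2 tests between genotypes, the targeted genes and defining markers. Others given as examples were chosen after their values were seen. Same-numbered NEMO arrays did not deviate together (r = -0.0842, -0.0335 and -0.115). With so few arrays per group these correlations cannot decide whether the numbers pair hepatocytes and liver of the same mouse. The alternatives were other samples in the fit, low-value filter, probe set rule, spread model and scaling, the replicate block and leaving out single arrays. Leaving the 4 doubted arrays out of the control and KEAP1 knockout differences was chosen after seeing the data.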

Additional observations from a re-analysis of the deposited data

Results flagged for a closer look

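The difference between hepatocytes and liver depended on genotype (NEMO knockout against control, tested as an interaction) for 13 genes at an adjusted p of 0.0303 to 0.0437. The NEMO knockout change minus the control change was 2.16 for Dcn, 1.99 for Rgs5, 1.79 for Ecm1, 1.74 for Plvap, 1.57 for Calcrl, 1.55 for Ptprb, 1.47 for Adgrf5, 1.41 for Adgrl4, 1.04 for Pde2a and 0.94 for Adgrf4. It was -1.07 for Zfp791, -2.81 for Akr1c18 and -3.55 for Prelid2. Prelid2 alone kept its call without the 4 arrays that stood apart, and without them the adjusted p of the other 12 was 0.0566 to 0.0909. It kept the call in only 2 of the 12 fits without 1 array, while Ptprb kept its call in 6 of 12. Groups of 3 arrays were not tested for single outlying arrays.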

How the results depend on the processing

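The 710 calls (205 higher, 505 lower) became 1050 (192 and 858) in a fit of the 6 NEMO arrays alone, 1480 (386 and 1094) without the 4 arrays in doubt, 500 (89 and 411) with the filter on low values, 2623 (2222 and 401) with median-centred arrays and 429 (161 and 268) with quantile normalization. The other probe set rule and spread models gave 674 to 735. Fits without 1 array gave 208 to 559 (61 to 158 higher, 147 to 410 lower). The difference between NEMO knockout and control changes had 13 calls (10 and 3). It had 0 (0 and 0) with only the arrays of the contrast, 12 (2 and 10) without the 4 arrays, 25 (22 and 3) with centring, 19 (16 and 3) with quantile normalization and 10 (9 and 1) with the robust fit. Fits without 1 array gave 0 to 47 (0 to 42 higher, 0 to 11 lower). The difference between NEMO knockout and KEAP1 knockout changes had 0 calls, 1 (higher) without the 4 arrays and 0 to 1 in fits without 1 array (0 to 1 in each direction). With the replicate number as a block the 3 comparisons had 743, 3 (3 higher, 0 lower) and 0 calls. The labels do not say what the numbers mark. No named gene that was called in the main fit or in the other fit changed sign between them. Sign changes of uncalled genes were not counted. The balance of calls turned, with more genes higher than lower with centring in the first comparison. In the difference from controls more were lower than higher without the 4 arrays. Of the 69 named genes called in the first comparison 25 kept the call without any 1 array, 66 in the fit of 6 arrays and 69 without the 4 arrays. The cause of these moves was not tested. Low values limit precision: fold changes that start near background are understated.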
